A study of Homo sapiens with 12 samples.

Results

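The numbered zinc finger genes described here are the 222 genes whose symbol is ZNF followed by a number and at most 1 letter, and whose mean normalized count over the 3 Control Input libraries was 200 or more. They were drawn from 527 symbols of that form among 25369 genes in the tables, and were selected on their Control Input values, so contrasts with Control Input are given for them only as descriptions. Human HEK293T cells, a transformed line from embryonic kidney, were transfected with a plasmid for Halo-TNIP2 196-346, a fusion of the Halo tag with a stretch of TNIP2, or, as the Control, with one for the unfused Halo tag. TNIP2 is an adaptor protein known to bind ubiquitin chains and to restrain NF-kB signalling, and only a fragment of it was expressed, from a plasmid and next to the endogenous gene. Input libraries held total RNA of whole cell extract, and Pulldown libraries held RNA from the rest of the extract after purification through the tag. The culture protocol names the line HEK293, while sample titles name it HEK293T. The 4 groups were TNIP2 Pulldown, TNIP2 Input, Control Pulldown and Control Input, with 3 libraries in each, and all groups shared a Halo construct and the removal of ribosomal RNA.

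Zinc finger genes of the C2H2 type encode proteins whose fingers, each folded around a zinc ion, mostly contact DNA bases in sequence. The family is one of the largest of human transcription factor families, and many of its genes lie in clusters on chromosome 19 that grew by duplication. Many of its proteins carry a KRAB domain, which recruits TRIM28 and, through it, the histone methyltransferase SETDB1, to silence transposable elements, while others bind RNA, ribosomes, the spindle or chromatin complexes.

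Reads recovered from the deposited values numbered 10312401 to 29525849 per library in TNIP2 Pulldown, 8898035 to 16758109 in TNIP2 Input, 3591001 to 6404503 in Control Pulldown and 13792517 to 20789801 in Control Input. The member with the fewest reads in a library had 47 to 321 of them, so no member rested on a handful of reads. TNIP2 itself, whose coding sequence is partly on the plasmid, had 51905, 69806 and 193013 normalized counts in TNIP2 Pulldown, 16750, 13318 and 46568 in TNIP2 Input, 1472, 309 and 391 in Control Pulldown and 278, 304 and 272 in Control Input. All libraries labelled with the fragment thus lay above all tag-only libraries. The 3 TNIP2 Pulldown libraries scored 94.9 to 112.2 on the first principal component, against -37.49 to -29.33 for the other 9. On the second component TNIP2 Pulldown 3 (47.75) and TNIP2 Input 3 (54.74) stood apart from the rest (-25.71 to 2.844), so the counts of the family and of each list are also given without that pair where they moved. VIM (3384 to 7416 normalized counts) and KRT18 (436 to 806), which HEK293 cells are known to express, were present in every library, and PAX2 had 2 to 22. CD3E and HBB were at 0 in all 12 libraries and PTPRC did not exceed 1. Markers of other tissues were not all absent: COL1A1 had 15 to 86 normalized counts, COL3A1 25 to 67 and ALB 0 to 33. HBA1, DCN, PECAM1 and VWF did not exceed 9.

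Comparing TNIP2 Pulldown with TNIP2 Input addressed which RNAs were over- or under-represented after purification with the fragment. Among the 222 members, 79 were higher and 58 lower in TNIP2 Pulldown, and 85 did not pass the test (limma on log2(normalized count + 1), adjusted p under 0.05). The members called made 61.7%, beside 58.1% of the 14627 genes tested, with 29.8% of all genes higher and 28.3% lower. The members' share was near that of all genes, so the count is not a result about the family. These log2 fold changes set normalized counts of a purified fraction against those of the extract, so they are relative and are not changes of RNA level in the cells. The family's median log2 fold change was 0.12 (middle 50% from -0.53 to 0.82), beside 0.01 for all genes. Single members ran from -2.34 to 3.39 with an SD of 0.98, beside -6.36 to 3.73 and an SD of 1.11 for all genes. The members were chosen for higher counts, while all genes include low ones, and no reference matched for abundance is given here. The spread and the shares are therefore only described beside those of all genes, here and below. At least 2-fold, 41 rose and 27 fell, which is 18.5% and 12.2% of members beside 18.8% and 16.8% of all genes. In 67 members all 3 TNIP2 Pulldown libraries lay above all 3 TNIP2 Input libraries, and in 52 all 3 lay below, which is 53.6% of members beside 57.5% of all genes.

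TNIP2 Pulldown against Control Pulldown asked the same of the purified fractions, with the tag-only purification in place of the extract. Here 82 members were higher, 57 lower and 83 did not pass, a share called of 62.6% beside 59.4% of all genes (30.6% higher, 28.7% lower). The median was 0.18, beside 0.03 for all genes, and values ran from -2.35 to 3.21. At least 2-fold changes were found for 44 higher and 27 lower members, 19.8% and 12.2% of them, beside 19.8% and 17.2% of all genes. Libraries did not overlap for 87 members above and 59 below (65.8%, beside 61% of all genes). Both comparisons use the same TNIP2 Pulldown libraries, so their values stand side by side below and neither is independent support for the other.

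**Figure D1:**
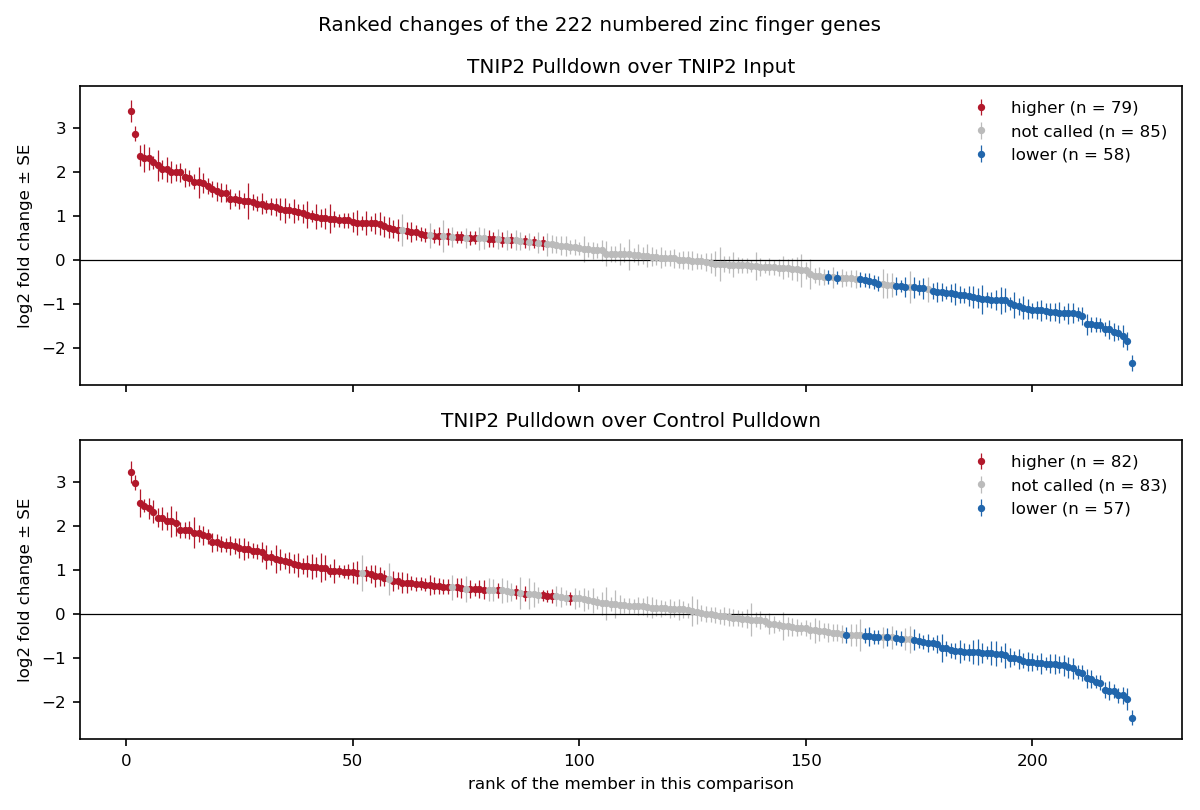
Log2 fold changes with standard errors (vertical axis) of the 222 members, ranked within each comparison (horizontal axis); red points were called higher, blue points lower and grey points not called. In TNIP2 Pulldown over TNIP2 Input 79 were higher and 58 lower, and over Control Pulldown 82 were higher and 57 lower, with a few members beyond 2 on the log2 scale.

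Without TNIP2 Pulldown 3 and TNIP2 Input 3, 95 members were higher and 63 lower against TNIP2 Input, 71.2% of members beside 64.0% of all genes (32.9% higher, 31.0% lower). Against Control Pulldown 98 were higher and 72 lower, 76.6% of members beside 68.0% of all genes (35.2% higher, 32.8% lower). The median was 0.14 and 0.06. No call of a named member ended, and ZNF148, ZNF384, ZNF395 and ZNF711 gained one against TNIP2 Input. Against Control Pulldown ZNF143, ZNF148, ZNF326, ZNF395, ZNF579, ZNF609, ZNF638, ZNF711 and ZNF768 gained one. The split between directions also rested on the scaling. When libraries were centred on 78 ribosomal protein genes instead, the median of all genes moved to -0.47 against TNIP2 Input and to -0.32 against Control Pulldown. Members higher and lower were then 38 and 84 against TNIP2 Input (57.9% of all genes called, 16.5% higher and 41.3% lower), and 45 and 75 against Control Pulldown (56.8% of all genes called, 19.9% higher and 36.8% lower). In the deposited scaling the members' median was 0.12 and 0.15 above that of all genes in the 2 comparisons, a distance that centring cannot alter because it shifts every gene of a library alike. Without TNIP2 Pulldown 3 it was 0.04 and 0.03, and without both TNIP2 libraries numbered 3 it was 0.13 and 0.03. Of the named members called, 38 against TNIP2 Input and 37 against Control Pulldown, the log2 fold change moved by over 1.5 times in 15 and 9 under centring and in 6 and 6 under quantile normalization.

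Contrasts that used the Control Input libraries describe the starting point. In Control Pulldown against Control Input the members ran from -0.38 to 0.37 on the log2 scale and 0 were called, beside 0.137% of all genes. No member had an unadjusted limma p under 0.05 there, beside 342 of the 14627 genes tested. The SD of the log2 fold changes was 0.13 in members and 0.31 in all genes. The rule chose members on their Control Input values and left out genes with low counts. No test is therefore read from these p-values, and the narrow range is not read as a trait of the family. In TNIP2 Input against Control Input the members ran from -0.51 to 0.55 and 0 were called, beside 0.00684% of all genes. There 1 member had an unadjusted limma p under 0.05, beside 104 of all genes, and the same limit holds. Summed over the 222 genes, the members had 160984 to 170366 normalized counts in TNIP2 Pulldown, against 117845 to 142872 in TNIP2 Input, 122145 to 132909 in Control Pulldown and 121043 to 129178 in Control Input. TNIP2 Pulldown thus lay above the other 9 libraries in this sum. As a share of all genes' counts, the members took 1.10% to 1.34% of normalized counts in TNIP2 Pulldown, 1.13% to 1.33% in TNIP2 Input, 1.19% to 1.3% in Control Pulldown and 1.13% to 1.24% in Control Input. The ranges of this share overlapped.

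**Figure D2:**
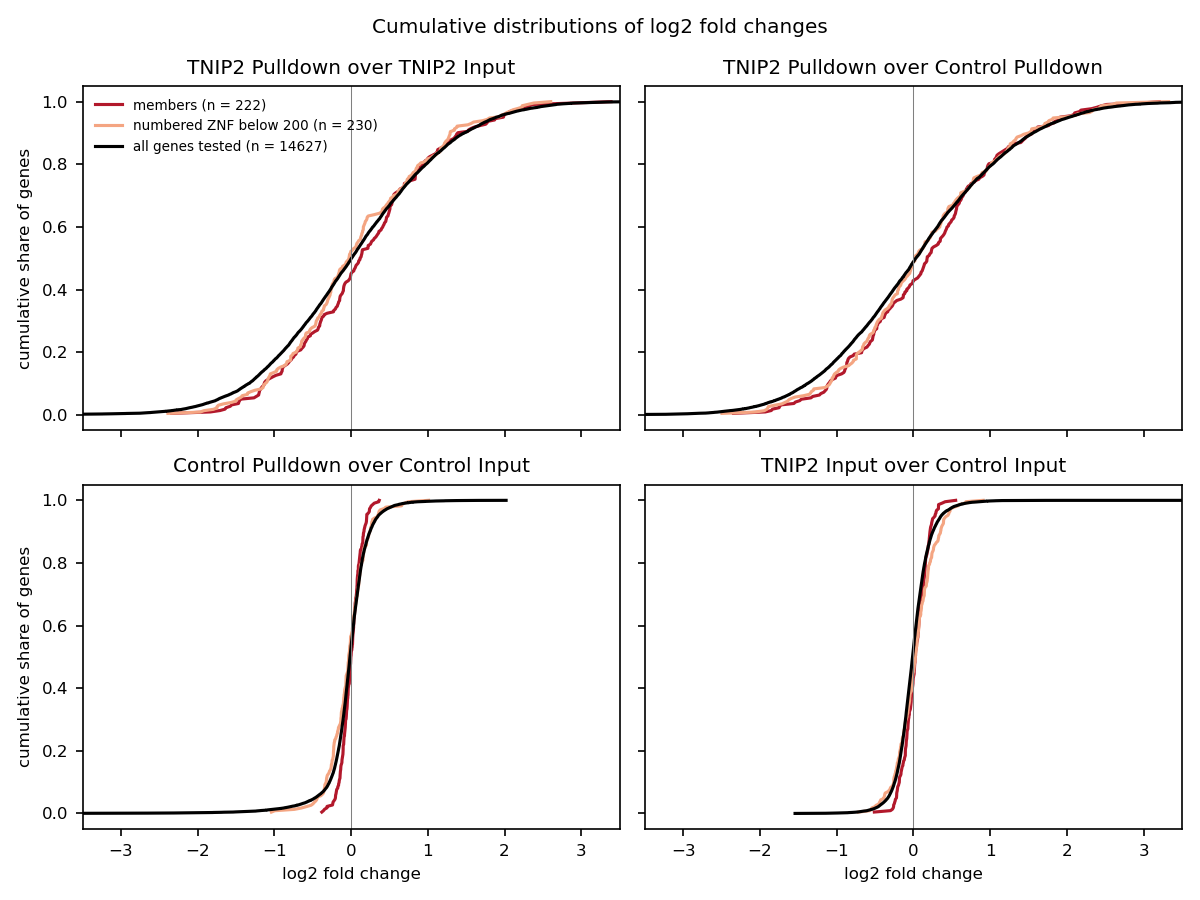
Cumulative share of genes (vertical axis) against log2 fold change (horizontal axis) for the 222 members, the 230 tested numbered zinc finger genes below a Control Input mean of 200, and all 14627 genes tested, in 4 comparisons. The members follow all genes closely in both comparisons of TNIP2 Pulldown, and lie between -0.51 and 0.55 in the contrasts with Control Input.

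The members named at both ends of the ranking were taken, per comparison, from those called whose libraries did not overlap between the groups compared. Their lack of overlap there follows from that choice and is only a description. The largest rise was that of ZNF706, a short protein with a C-terminal zinc finger. It had 2253, 3129 and 1473 normalized counts in TNIP2 Pulldown, against 244, 247 and 148 in TNIP2 Input, 218, 261 and 230 in Control Pulldown and 208, 204 and 252 in Control Input. Every TNIP2 Pulldown library stood far above the other 9, which overlapped with each other. The log2 fold change was 3.39 (SE 0.25, adjusted p = 8.1e-08) over TNIP2 Input and 3.21 (SE 0.25, adjusted p = 1.2e-07) over Control Pulldown, and same-numbered TNIP2 libraries gave ratios of 9.20, 12.6 and 9.89.

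ZNF77, a KRAB zinc finger gene on chromosome 19, followed with 1763, 2099 and 1584 normalized counts in TNIP2 Pulldown, 216, 230 and 297 in TNIP2 Input, 223, 231 and 235 in Control Pulldown and 261, 214 and 252 in Control Input. Again the 3 TNIP2 Pulldown libraries lay above all others without overlap. Its log2 fold changes were 2.87 (SE 0.17, adjusted p = 1.5e-08) over TNIP2 Input and 2.97 (SE 0.17, adjusted p = 1e-08) over Control Pulldown.

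ZNF14, a second KRAB gene of chromosome 19, had 1299, 940 and 1744 normalized counts in TNIP2 Pulldown, against 186, 187 and 486 in TNIP2 Input and 243, 240 and 192 in Control Pulldown. The libraries numbered 3 were the highest of their groups in both TNIP2 fractions. Log2 fold changes were 2.32 (SE 0.32, adjusted p = 1.9e-05) and 2.52 (SE 0.32, adjusted p = 8.4e-06), and without the TNIP2 libraries numbered 3 they were 2.56 and 2.30.

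At the other end stood ZNF589, a KRAB gene first described in blood stem cells. Its normalized counts were 160, 153 and 185 in TNIP2 Pulldown, against 797, 1036 and 721 in TNIP2 Input, 902, 862 and 778 in Control Pulldown and 707, 944 and 1062 in Control Input. No library of the other groups came near the TNIP2 Pulldown level. The log2 fold changes were -2.34 (SE 0.18, adjusted p = 1.2e-07) and -2.35 (SE 0.18, adjusted p = 1e-07).

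ZNF300, another KRAB gene, was the next lowest member against TNIP2 Input, with 72, 106 and 58 normalized counts in TNIP2 Pulldown, 252, 273 and 299 in TNIP2 Input, 278, 264 and 293 in Control Pulldown and 244, 261 and 305 in Control Input. It fell by 1.83 on the log2 scale (SE 0.20, adjusted p = 3e-06) and by 1.85 (SE 0.20, adjusted p = 2.5e-06). The groups did not overlap in either comparison.

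The promoters of the 4 KRAB genes just described are shown because they sit near opposite ends of the ranking. ZNF706 (3.39) and ZNF721 (2.37), which ranked above ZNF14 (2.32) against TNIP2 Input, are not shown. Each run is the 250 bases before the RefSeq start (build GRCh38.p14, gene strand, 5′ to 3′), which is a different build from that of the deposited tables. Capitals mark matches on either strand to one of 3 motifs, none of which overlapped another here. The GC box, bound by Sp1-like factors, was searched for as GGGCGG. The CCAAT box, bound by NF-Y, was searched for by its name. The core of the motif of ZNF143 was searched for as ACTACAA.
ZNF77, chr19:2944972-2945221, minus strand: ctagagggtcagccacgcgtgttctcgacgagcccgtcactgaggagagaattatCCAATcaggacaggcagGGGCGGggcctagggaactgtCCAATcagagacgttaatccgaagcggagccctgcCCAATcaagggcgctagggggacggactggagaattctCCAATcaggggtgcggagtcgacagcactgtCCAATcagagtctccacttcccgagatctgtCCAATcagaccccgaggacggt
ZNF14, chr19:19733113-19733362, minus strand: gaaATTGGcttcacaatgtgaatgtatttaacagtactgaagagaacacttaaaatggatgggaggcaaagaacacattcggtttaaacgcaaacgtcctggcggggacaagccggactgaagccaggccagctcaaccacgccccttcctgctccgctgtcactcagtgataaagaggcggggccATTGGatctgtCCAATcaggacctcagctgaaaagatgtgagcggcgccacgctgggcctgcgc
ZNF589, chr3:48240854-48241103, plus strand: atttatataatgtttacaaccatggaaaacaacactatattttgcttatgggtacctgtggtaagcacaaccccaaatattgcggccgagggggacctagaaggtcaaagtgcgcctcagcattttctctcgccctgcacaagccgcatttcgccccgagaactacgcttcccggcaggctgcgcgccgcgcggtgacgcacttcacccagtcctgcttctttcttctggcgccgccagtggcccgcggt
ZNF300, chr5:150904981-150905230, minus strand: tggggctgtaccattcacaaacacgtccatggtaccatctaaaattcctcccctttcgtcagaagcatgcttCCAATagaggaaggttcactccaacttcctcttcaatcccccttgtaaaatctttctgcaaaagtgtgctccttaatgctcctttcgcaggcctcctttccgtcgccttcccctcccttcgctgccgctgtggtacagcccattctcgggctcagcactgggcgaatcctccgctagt

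The ZNF77 promoter held 6 CCAAT boxes, all on the gene strand, and 1 GC box, and that of ZNF14 held 3 CCAAT boxes. ZNF300 had 1 CCAAT box, and ZNF589 none of the letters searched. Of the 222 members, 191 had a promoter in the RefSeq table. A GC box was found in 61.8% of these, against 42.3% of all 27305 promoters in the table, and in 62.1% of members higher, 67.6% not called and 52.9% lower against TNIP2 Input. CCAAT was found in 39.3% of members and 33% of all promoters. ACTACAA was found in 6.81% of members and 2.64% of all promoters, which was 4 of 66 members higher, 2 of 74 not called and 7 of 51 lower. Median GC content was 63.2% in members and 58% in all promoters. The 430 promoters in the table whose gene symbol has this form had a GC box in 61.2%, CCAAT in 46.5% and ACTACAA in 5.12%. Their median GC content was 60.8%. Neither reference was limited to genes expressed in these cells, while the members were chosen on their counts. The members' GC box share was thus near that of the whole family, and their CCAAT share lay below it. These matches of letters are a description and were not tested, and no match says only that the letters are absent from this window.

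**Figure D3:**
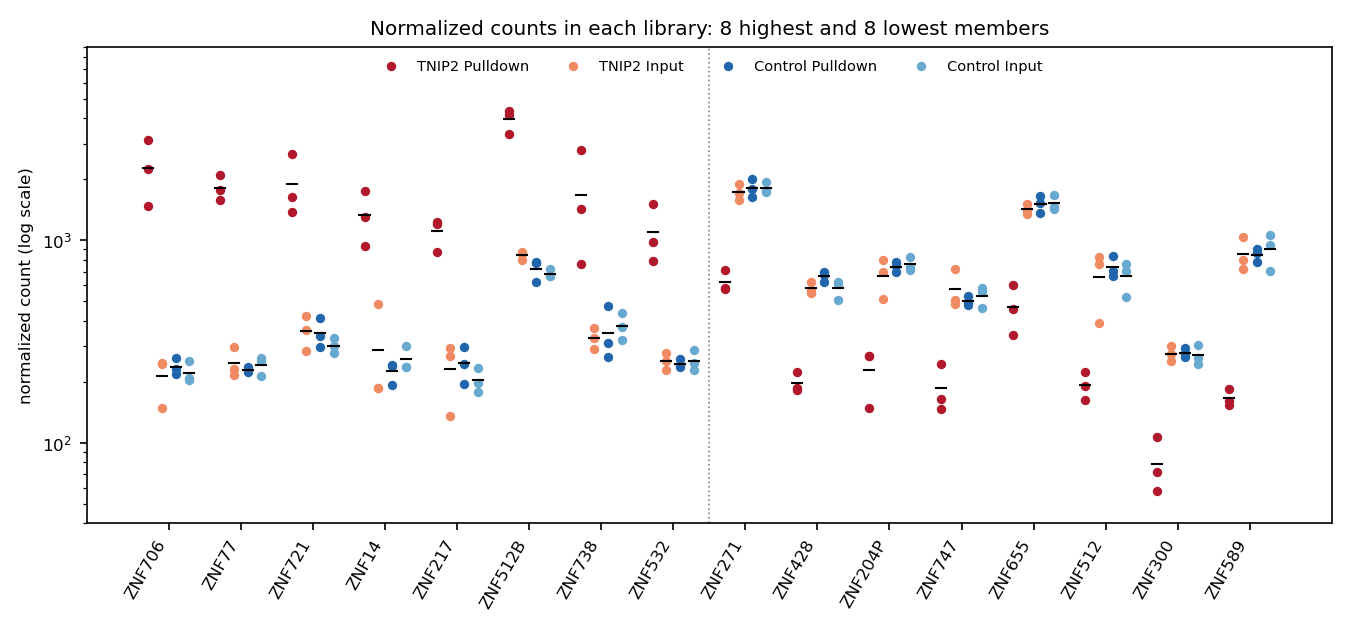
Normalized counts (vertical log axis) in each of the 12 libraries for the 8 members with the highest and the 8 with the lowest called log2 fold changes in TNIP2 Pulldown over TNIP2 Input. The members were taken from those whose TNIP2 Pulldown and TNIP2 Input libraries did not overlap, so their separation from TNIP2 Input follows from the choice. Points are libraries, coloured by group, and short lines are group means of 3. TNIP2 Pulldown lies above the other 3 groups left of the dotted line and below them right of it.

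Further members at the top were of several roles. ZNF217, an oncoprotein known from CoREST and CtBP repressor complexes, had 1200, 1234 and 878 normalized counts in TNIP2 Pulldown, against 269, 293 and 135 in TNIP2 Input and 195, 245 and 298 in Control Pulldown. It rose by 2.31 (SE 0.26, adjusted p = 4e-06) over TNIP2 Input and 2.17 (SE 0.26, adjusted p = 6.7e-06) over Control Pulldown, and the libraries did not overlap. ZNF746, also called PARIS, a substrate of the ubiquitin ligase parkin, had 2601, 2704 and 3464 normalized counts in TNIP2 Pulldown, against 663, 580 and 1018 in TNIP2 Input and 796, 542 and 601 in Control Pulldown. Its log2 fold changes were 1.99 (SE 0.21) and 2.18 (SE 0.21). ZNF532, which has been found in a complex with ZNF592 and ZNF687, had 984, 1512 and 792 normalized counts in TNIP2 Pulldown, against 252, 277 and 229 in TNIP2 Input and 235, 242 and 260 in Control Pulldown. These 3 genes had TNIP2 Pulldown libraries above every other library.

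ZNF721 rose by 2.37 over TNIP2 Input and 2.39 over Control Pulldown, both with SE 0.23. ZNF468 rose by 1.99 and 2.32, both with SE 0.25. ZNF738 rose by 2.15 and 2.10, both with SE 0.35, and was the most uneven of the top members: its TNIP2 Pulldown libraries held 1426, 2804 and 764 normalized counts, against 328, 369 and 289 in TNIP2 Input and 266, 309 and 472 in Control Pulldown. Even its lowest TNIP2 Pulldown library lay above the other groups.

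Among the lowest members, ZNF655, known as a partner of the signalling protein VAV1, had 455, 603 and 341 normalized counts in TNIP2 Pulldown, against 1404, 1504 and 1353 in TNIP2 Input and 1355, 1522 and 1649 in Control Pulldown. It fell by 1.64 on the log2 scale (SE 0.18, adjusted p = 3e-06) and by 1.73 (SE 0.18, adjusted p = 1.7e-06). ZNF747 fell by 1.63 and 1.46 on the log2 scale, both with SE 0.21. ZNF428 fell by 1.56 and 1.75, both with SE 0.15. ZNF337 fell by 1.45 and 1.84, both with SE 0.17. In all 4 genes the TNIP2 Pulldown libraries lay below those of both other groups compared.

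The most abundant members went both ways. ZNF207 (BuGZ), a spindle protein that binds BUB3, had 5204, 5024 and 6017 normalized counts in TNIP2 Pulldown, against 2213, 2043 and 3350 in TNIP2 Input and 2320, 2262 and 2084 in Control Pulldown. It rose by 1.13 (SE 0.17, adjusted p = 6.3e-05) and 1.28 (SE 0.17, adjusted p = 1.8e-05). The rise was smaller but still called under quantile normalization (0.50 and 0.66) and when centred on the ribosomal protein genes (0.65 and 0.93). ZNF664 had 823, 904 and 955 normalized counts in TNIP2 Pulldown, against 2615, 2802 and 2038 in TNIP2 Input and 2305, 2450 and 3220 in Control Pulldown. It fell by 1.46 (SE 0.17, adjusted p = 5.2e-06) and 1.56 (SE 0.17, adjusted p = 2.7e-06). The libraries of neither gene overlapped between the groups compared.

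ZNF24, a SCAN-domain repressor and the most abundant member (mean 4574.3 in Control Input), had 3560, 4562 and 2739 normalized counts in TNIP2 Pulldown, against 4377, 4412 and 4772 in TNIP2 Input and 4837, 4879 and 5379 in Control Pulldown. It was not called against TNIP2 Input (-0.35, SE 0.17, adjusted p = 0.086), where the libraries overlapped. Against Control Pulldown it was lower (-0.50, SE 0.17, adjusted p = 0.018), a call that ended without TNIP2 Pulldown 3 (-0.32, adjusted p = 0.052), without Control Pulldown 3 (-0.46, adjusted p = 0.064) or in a fit of the 6 libraries compared. Against TNIP2 Input it was called lower without TNIP2 Pulldown 2 (-0.53, adjusted p = 0.0088), when centred on the ribosomal protein genes (-0.83, adjusted p = 0.00033) and under quantile normalization (-0.96, adjusted p = 3.3e-05). Those scalings gave -0.85 and -1.14 against Control Pulldown. ZNF146, a protein made almost wholly of zinc fingers, had 3764, 3734 and 2880 normalized counts in TNIP2 Pulldown, against 2485, 2624 and 2639 in TNIP2 Input and 2426, 2618 and 2692 in Control Pulldown. Its log2 fold change was 0.41 in both comparisons (SE 0.14, adjusted p = 0.021 and 0.02), but quantile normalization turned it to -0.19 and -0.18 and centring on ribosomal protein genes gave -0.07 and 0.07. The first call also ended in a paired fit, of the 6 TNIP2 libraries alone with the replicate number as a block (adjusted p = 0.071). Both calls also ended without TNIP2 Pulldown 1 (adjusted p = 0.065 and 0.061) or TNIP2 Pulldown 2 (0.062 and 0.059), the first without TNIP2 Input 1 (0.07) and the second without Control Pulldown 1 (0.074).

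ZNF768 had 2248, 1987 and 4829 normalized counts in TNIP2 Pulldown, against 2451, 2499 and 4167 in TNIP2 Input and 2830, 2560 and 2662 in Control Pulldown. The library numbered 3 was the high one in both TNIP2 fractions. It was not called (-0.08 and 0.05, both with SE 0.28), and without the libraries numbered 3 it was lower against Control Pulldown (-0.34, adjusted p = 0.016).

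The role lists below were short and picked by hand, so they are not a count of all members with such roles. The list for RNA, ribosomes or the spindle held 8 members. Of these 5 were higher, 2 lower and 1 not called against TNIP2 Input, with a median log2 fold change of 0.64. Against Control Pulldown 3 were higher, 2 lower and 3 not called, with a median of 0.41. The shares called were 87.5% and 62.5%, beside 58.1% and 59.4% of all genes, over too few genes to be read as a result. With quantiles made equal the medians were 0.23 and 0.41, and centred on the ribosomal protein genes they were 0.16 and 0.07. Leaving out both TNIP2 libraries numbered 3 gave 5 higher and 2 lower in each comparison. ZNF830, a protein of a splicing complex, had 1213, 1095 and 749 normalized counts in TNIP2 Pulldown, against 299, 292 and 281 in TNIP2 Input and 284, 298 and 301 in Control Pulldown. Its log2 fold changes were 1.78 (SE 0.17, adjusted p = 9.2e-07) and 1.76 (SE 0.17, adjusted p = 9.3e-07). ZNF598, the ubiquitin ligase that marks collided ribosomes, had 1704, 2033 and 2856 normalized counts in TNIP2 Pulldown, against 838, 849 and 965 in TNIP2 Input and 759, 822 and 801 in Control Pulldown. It rose by 1.28 (SE 0.17, adjusted p = 1.6e-05) and 1.43 (SE 0.17, adjusted p = 5.1e-06). Both genes had all TNIP2 Pulldown libraries above the other groups.

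ZNF593, whose yeast counterpart Bud20 serves in ribosome assembly, had 160, 188 and 282 normalized counts in TNIP2 Pulldown, against 335, 303 and 501 in TNIP2 Input and 415, 436 and 391 in Control Pulldown. It fell by 0.86 (SE 0.22, adjusted p = 0.0039) and 1.02 (SE 0.22, adjusted p = 0.0011) on the log2 scale. ZNF346, a protein that binds double-stranded RNA, fell by 0.59 (SE 0.14, adjusted p = 0.0023) and 0.67 (SE 0.14, adjusted p = 0.00082). The ribosome-linked members thus did not move one way: ZNF598 rose, ZNF593 fell, and ZNF622, whose yeast counterpart Rei1 also acts in ribosome assembly, was not called (-0.09 and 0.24, both with SE 0.38). ZNF326, a subunit of a complex that couples splicing to transcription, was called against TNIP2 Input only (0.85, adjusted p = 0.02; 0.57, adjusted p = 0.1 against Control Pulldown). So was ZNF638, a nuclear matrix protein (0.43, adjusted p = 0.022; 0.26, adjusted p = 0.14), and quantile normalization turned its values to -0.15 and -0.31. The ZNF326 call ended without TNIP2 Input 3 (0.53, adjusted p = 0.1) or TNIP2 Pulldown 2 (0.60, adjusted p = 0.11), or when centred on the ribosomal protein genes (0.37, adjusted p = 0.28), and without TNIP2 Input 3 the gene was called against Control Pulldown (adjusted p = 0.048). The ZNF638 call ended without TNIP2 Input 1, TNIP2 Input 2, TNIP2 Pulldown 1 or TNIP2 Pulldown 2 (adjusted p = 0.068, 0.054, 0.065 and 0.08) and in the paired fit of the 6 TNIP2 libraries (0.065), and without TNIP2 Pulldown 3 that gene passed against Control Pulldown (0.41, adjusted p = 0.0079). Whether these 2 genes differ between the comparisons was not tested.

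The list for chromatin complexes or SUMO transfer, also picked by hand, held 9 members. ZNF532 and ZNF518B, described elsewhere in the text with partners of this kind, were not on it. Against TNIP2 Input 4 were higher, 1 lower and 4 not called (median 0.49), and against Control Pulldown 5 were higher, 1 lower and 3 not called (median 0.44). These were 55.6% and 66.7% called, beside 58.1% and 59.4% of all genes. Leaving out the TNIP2 pair numbered 3 made them 5 higher and 1 lower, and 7 higher and 1 lower. Centring on ribosomal protein genes left 1 higher and 1 lower in both comparisons. ZNF217, given above, had the largest change. ZNF274, which is known to bind the ends of other zinc finger genes and to bring SETDB1 there, had 578, 564 and 1265 normalized counts in TNIP2 Pulldown, against 286, 292 and 697 in TNIP2 Input and 352, 351 and 374 in Control Pulldown. Again the library numbered 3 was the high one in both TNIP2 fractions, and TNIP2 Pulldown overlapped with TNIP2 Input. Its log2 fold changes were 0.94 (SE 0.33, adjusted p = 0.023) and 1.05 (SE 0.33, adjusted p = 0.012), and both calls ended without TNIP2 Pulldown 3 (0.56 and 0.67, adjusted p = 0.11 and 0.06) and under centring on ribosomal protein genes. The first also ended without TNIP2 Input 1 (adjusted p = 0.1) or TNIP2 Input 2 (adjusted p = 0.095).

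ZNF451, a SUMO ligase, had 2392, 2010 and 2179 normalized counts in TNIP2 Pulldown, against 1409, 1513 and 1636 in TNIP2 Input and 1561, 1601 and 1740 in Control Pulldown. It rose by 0.53 (SE 0.13, adjusted p = 0.0035) and 0.42 (SE 0.13, adjusted p = 0.014), and both calls ended under centring on ribosomal protein genes (0.05 and 0.08) and with quantiles made equal (0.09 and -0.01). The second also ended without Control Pulldown 1 (0.39, adjusted p = 0.052). ZNF644, a partner of the histone methyltransferases EHMT1 and EHMT2, was the member of this list that fell. It had 1564, 1280 and 1660 normalized counts in TNIP2 Pulldown, against 1822, 1716 and 2594 in TNIP2 Input and 2157, 2214 and 2452 in Control Pulldown. The log2 fold changes were -0.43 (SE 0.17, adjusted p = 0.041) and -0.61 (SE 0.17, adjusted p = 0.0063). The first of these calls ended in 11 of 23 alternatives and the second in 0 of 22. Leaving out TNIP2 Input 3 gave -0.24 (adjusted p = 0.18) and TNIP2 Pulldown 2 gave -0.32 (adjusted p = 0.15). Without TNIP2 Pulldown 1, or any of Control Input 1, 2 and 3 or Control Pulldown 1 and 2, its adjusted p was 0.053 to 0.056, and in the paired fit of the 6 TNIP2 libraries it was 0.051. ZNF592 and ZNF687, found in a complex with ZNF532, were called against Control Pulldown (0.75, adjusted p = 0.0029, and 0.70, adjusted p = 0.015) and not against TNIP2 Input (0.35, adjusted p = 0.12, and 0.45, adjusted p = 0.1). ZNF609 was called against TNIP2 Input (0.49, adjusted p = 0.034; 0.35, adjusted p = 0.12 against Control Pulldown), a call that ended without TNIP2 Input 3 (0.29), TNIP2 Pulldown 1 (0.43) or TNIP2 Pulldown 2 (0.41), and without TNIP2 Pulldown 3 it passed against Control Pulldown (0.49). The ZNF687 call ended without Control Pulldown 2 (adjusted p = 0.06), and the gene passed against TNIP2 Input without TNIP2 Pulldown 1 or 2 (adjusted p = 0.045 and 0.048). Centring on ribosomal protein genes ended the calls of ZNF592, ZNF687 and ZNF609. ZNF335, a subunit of histone methyltransferase complexes, passed in neither comparison (0.15, adjusted p = 0.67, and 0.44, adjusted p = 0.19). ZNF711, which brings the demethylase PHF8 to promoters, passed in neither with all libraries (0.51, adjusted p = 0.073, and 0.40, adjusted p = 0.15). Without TNIP2 Pulldown 3 it passed in both (0.71, adjusted p = 0.016, and 0.60, adjusted p = 0.036). Against TNIP2 Input it also passed without TNIP2 Input 2 (adjusted p = 0.043) and in the paired fit of the 6 TNIP2 libraries (adjusted p = 0.021).

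The list of promoter-binding regulators, also picked by hand, held 8 members. Of these 1 was higher and 2 lower against TNIP2 Input (median 0.16), and 2 higher and 2 lower against Control Pulldown (median 0.06). That is 37.5% and 50% called, beside 58.1% and 59.4% of all genes. The balance turned without both TNIP2 libraries numbered 3, to 4 higher and 2 lower (median 0.14) and to 4 higher and 3 lower (median 0.18). Centred on the ribosomal protein genes, 0 were higher and 3 lower, and 1 higher and 3 lower. ZNF281, a regulator of stem cell and mesenchymal genes, had 2281, 2490 and 2006 normalized counts in TNIP2 Pulldown, against 1097, 1129 and 1422 in TNIP2 Input and 1174, 1072 and 1169 in Control Pulldown. It rose by 0.90 (SE 0.15, adjusted p = 9.8e-05) and 0.98 (SE 0.15, adjusted p = 4e-05), and centring on ribosomal protein genes ended the first call (0.42, adjusted p = 0.061). ZNF410, an activator of CHD4, had 551, 381 and 657 normalized counts in TNIP2 Pulldown, against 1050, 927 and 1702 in TNIP2 Input and 1203, 1081 and 1313 in Control Pulldown. It fell by 1.19 (SE 0.24, adjusted p = 0.00051) and 1.21 (SE 0.24, adjusted p = 0.00044) on the log2 scale. The libraries of ZNF281 and of ZNF410 did not overlap between the groups compared.

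ZNF143, an activator of small nuclear RNA and many coding genes, had 140, 135 and 239 normalized counts in TNIP2 Pulldown, against 241, 221 and 305 in TNIP2 Input and 241, 195 and 316 in Control Pulldown. It overlapped in both comparisons and was called against TNIP2 Input (-0.61, SE 0.24, adjusted p = 0.039) and not against Control Pulldown (-0.57, SE 0.24, adjusted p = 0.053). With the replicate number as a block it passed against Control Pulldown too (-0.57, adjusted p = 0.018), as it did when centred on the ribosomal protein genes (-0.92, adjusted p = 0.029), while quantile normalization ended the first call (-0.46, adjusted p = 0.13). The first call ended when each of 7 libraries was left out in turn, among them TNIP2 Pulldown 1, TNIP2 Pulldown 2 and TNIP2 Input 3 (adjusted p = 0.14, 0.15 and 0.12), and the gene passed against Control Pulldown without TNIP2 Pulldown 3 (-0.83), Control Pulldown 2 (-0.74) or TNIP2 Input 3 (-0.57). The other 4 were TNIP2 Input 1, Control Pulldown 1, Control Input 2 and Control Input 3 (adjusted p = 0.05 to 0.065). Its close relative ZNF76 lay near 0 in both (0.01 and -0.01, both with SE 0.18). ZNF384 was called against Control Pulldown (0.49, adjusted p = 0.013; 0.30, adjusted p = 0.11 against TNIP2 Input), a call that ended without TNIP2 Pulldown 2 (0.38, adjusted p = 0.058) or when centred on the ribosomal protein genes (0.14, adjusted p = 0.57). Against TNIP2 Input it passed under quantile normalization (0.38, adjusted p = 0.05 after rounding) and without both TNIP2 libraries numbered 3 (0.40, adjusted p = 0.034). ZNF148 (0.42, adjusted p = 0.066, and 0.13, adjusted p = 0.58) and ZNF395 (0.50, adjusted p = 0.086, and 0.35, adjusted p = 0.22) passed in neither with all libraries. Without TNIP2 Pulldown 3 both passed in both comparisons, ZNF148 at 0.65 (adjusted p = 0.0013) and 0.36 (adjusted p = 0.042), and ZNF395 at 0.84 (adjusted p = 0.00053) and 0.69 (adjusted p = 0.0021). ZNF395 also passed against TNIP2 Input in the paired fit of the 6 TNIP2 libraries (adjusted p = 0.033). Of the KRAB genes listed for their known targets, ZNF268 was a member, with 242, 180 and 428 normalized counts in TNIP2 Pulldown, against 427, 418 and 870 in TNIP2 Input and 544, 453 and 465 in Control Pulldown. It fell by 1.02 (SE 0.30, adjusted p = 0.0092) and 0.87 (SE 0.30, adjusted p = 0.021), and both calls ended without TNIP2 Pulldown 2 (adjusted p = 0.055 and 0.12). The second also ended without TNIP2 Pulldown 1 (0.065) or Control Pulldown 1 (0.07).

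Members that share a number and differ by a letter were singled out after their values were seen. Of the 5 such numbers, 512, 518 and 280 held members called in opposite directions. ZNF512B, linked by human genetics to survival in amyotrophic lateral sclerosis, had 3364, 4142 and 4356 normalized counts in TNIP2 Pulldown, against 874, 859 and 794 in TNIP2 Input and 782, 772 and 619 in Control Pulldown. ZNF512, its related gene, had 224, 163 and 191 normalized counts in TNIP2 Pulldown, against 765, 824 and 390 in TNIP2 Input and 664, 840 and 702 in Control Pulldown. In TNIP2 Pulldown the first was above and the second below every other library. ZNF512B rose by 2.22 (SE 0.15, adjusted p = 3.5e-08) and 2.45 (SE 0.15, adjusted p = 1.7e-08), while ZNF512 fell by 1.71 (SE 0.25, adjusted p = 4e-05) and 1.93 (SE 0.25, adjusted p = 1.2e-05).

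ZNF518B, known to bind EHMT2, had 1450, 1293 and 1300 normalized counts in TNIP2 Pulldown, against 640, 669 and 706 in TNIP2 Input and 656, 660 and 755 in Control Pulldown. ZNF518A had 512, 456 and 488 in TNIP2 Pulldown, against 943, 1052 and 880 in TNIP2 Input and 934, 1049 and 1220 in Control Pulldown. Neither gene overlapped between groups, and they went opposite ways. ZNF518B rose by 1.00 and 0.97 (SE 0.13), and ZNF518A fell by 0.98 and 1.13 (SE 0.15).

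In the trio numbered 280, ZNF280D rose by 1.28 (SE 0.24, adjusted p = 0.00034) and 1.17, and ZNF280B by 0.83 (SE 0.27, adjusted p = 0.017) and 0.97. ZNF280C fell by 0.53 (SE 0.17, adjusted p = 0.015) and 0.78. ZNF33A fell by 1.18 and 1.48 (SE 0.21), and its partner ZNF33B had -0.66 (adjusted p = 0.053) and -0.94 (adjusted p = 0.0087). ZNF354A fell by 0.81 and 0.88 (SE 0.23), and ZNF354B was not called (-0.15 and -0.14, SE 0.20). Zinc finger genes of a pair can share near-identical stretches, and how the authors' counting treated reads that fit more than 1 gene is not given in the sources used here, so such values are uncertain to that extent.

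**Figure D4:**
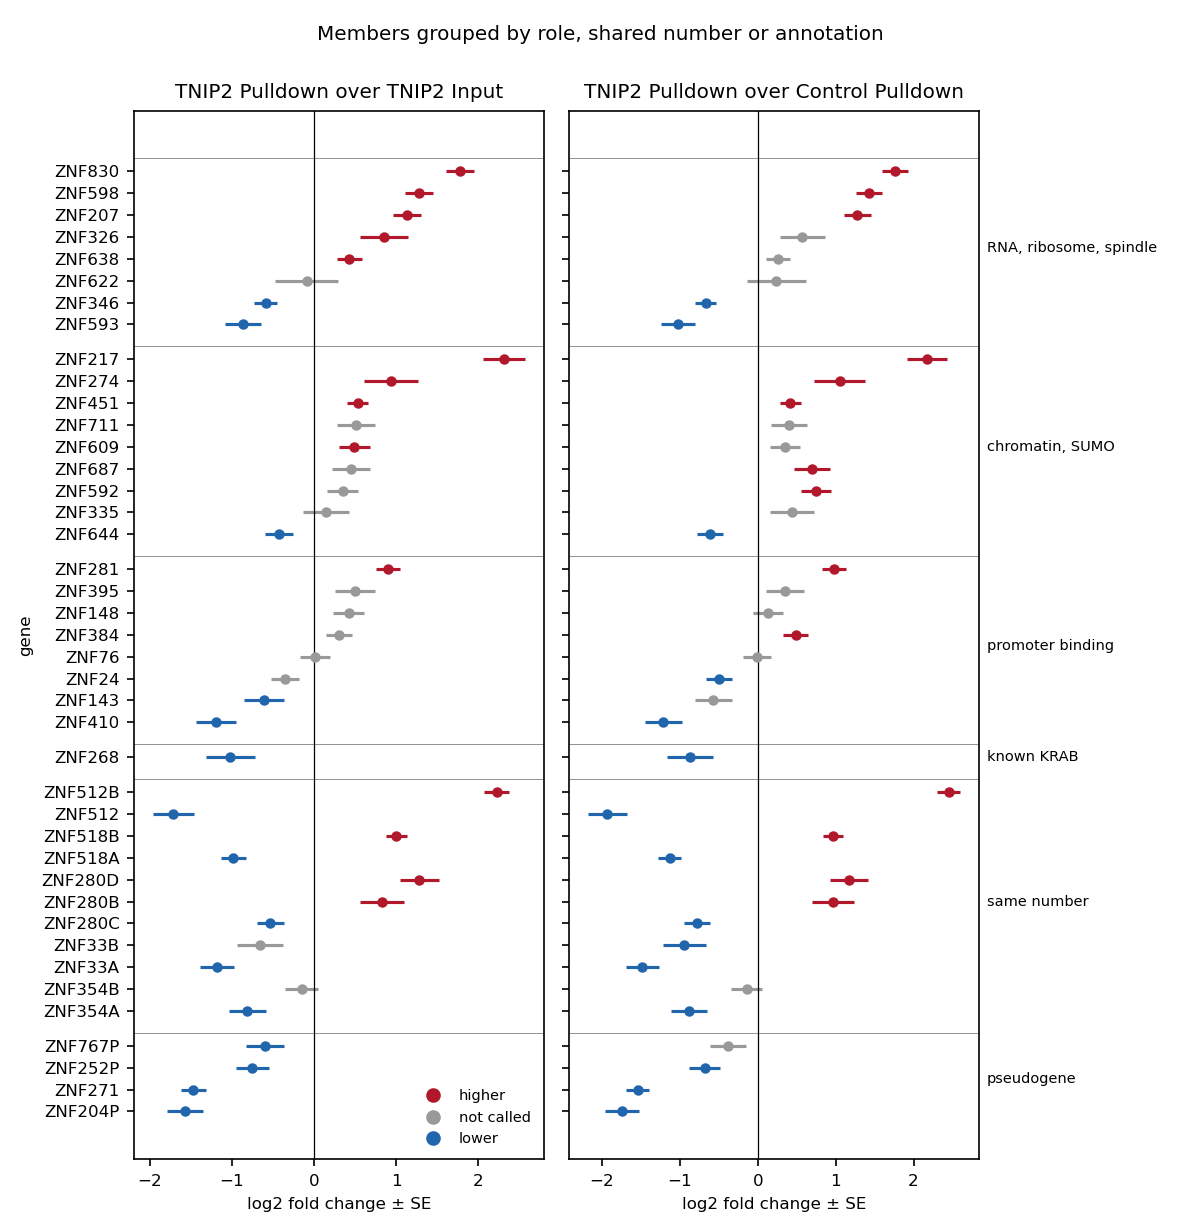
Log2 fold changes with standard errors (horizontal axis) of members listed by role, shared number or pseudogene annotation (rows), in TNIP2 Pulldown over TNIP2 Input (left) and over Control Pulldown (right). Red, blue and grey are called higher, called lower and not called; ZNF512B and ZNF512 sit at 2.22 and -1.71 in the left panel, and the 4 pseudogenes all lie below 0.

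Of the members, 4 are annotated as transcribed pseudogenes in RefSeq. Against TNIP2 Input all 4 were lower (median -1.11), and against Control Pulldown 3 of the 4 were, with so few genes that nothing is read from the count. All 4 were lower in each without both TNIP2 libraries numbered 3. ZNF204P had 269, 267 and 148 normalized counts in TNIP2 Pulldown, against 696, 798 and 511 in TNIP2 Input and 693, 777 and 748 in Control Pulldown. ZNF271 had 716, 581 and 574 in TNIP2 Pulldown, against 1702, 1578 and 1886 in TNIP2 Input and 1630, 2008 and 1796 in Control Pulldown. Both lay below all other libraries, at log2 fold changes of -1.57 and -1.47 against TNIP2 Input and -1.74 and -1.54 against Control Pulldown. ZNF252P fell by 0.75 (adjusted p = 0.0044) and 0.68 (adjusted p = 0.0084). ZNF767P fell by 0.60 against TNIP2 Input (adjusted p = 0.032) and was not called against Control Pulldown (-0.38, adjusted p = 0.16).

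Position and length are given as descriptions, with no test. Chromosome 19 held 71 of the 222, of which 27 were higher and 18 lower against TNIP2 Input (median 0.26), beside 52 and 40 of the other 151 (median 0.07). Against Control Pulldown the chromosome 19 members gave 31 and 16 (median 0.41), and the others 51 and 41 (median 0.14). The shares called on chromosome 19 were 63.4% and 66.2%, and elsewhere 60.9% in each, beside 58.1% and 59.4% of all genes. Without both TNIP2 libraries numbered 3 the chromosome 19 members gave 34 higher and 18 lower (median 0.32) and 33 and 19 (median 0.19), and the others 61 and 45 (median 0.04) and 65 and 53 (median 0.02). Centring on ribosomal protein genes turned the chromosome 19 counts to 8 higher and 22 lower, and 11 higher and 20 lower. The other members then gave 30 higher and 62 lower, and 34 higher and 55 lower. The shares called were 42.3% and 43.7% on chromosome 19 and 60.9% and 58.9% elsewhere, beside 57.9% and 56.8% of all genes. Members with no other protein-coding gene between them in the RefSeq annotation of GRCh38.p14 formed 38 pairs, 17 of them on chromosome 19. Against TNIP2 Input, 10 pairs had both genes called in 1 direction, 4 had them called in opposite directions and 24 had a member not called. The same counts over neighbouring pairs of all genes are not given here, so nothing is read from these. The 10 pairs included ZNF516 (1.99) with ZNF236 (1.53), ZNF567 (1.68) with ZNF850 (1.39), ZNF777 (0.96) with ZNF746 (1.99) and ZNF787 (-1.14) with ZNF444 (-0.91). The opposite pairs, named after their values were seen, were ZNF26 (1.88) with ZNF84 (-1.20), ZNF529 (0.55) with ZNF260 (-0.44), ZNF226 (1.31) with ZNF234 (-1.11) and ZNF107 (1.87) with ZNF138 (-1.13). ZNF26 had 826, 868 and 992 normalized counts in TNIP2 Pulldown, against 207, 190 and 359 in TNIP2 Input. Its neighbour ZNF84 had 231, 239 and 282 in TNIP2 Pulldown, against 524, 514 and 700 in TNIP2 Input.

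Exonic length, recovered from the ratio of deposited normalized counts to FPKM, ran from 0.649 to 14.9 kb, with a median of 4.16 kb. Split into 3 equal groups at 3.42 and 4.83 kb, the members had medians of -0.09, 0.22 and 0.21 against TNIP2 Input, and 0.04, 0.35 and 0.13 against Control Pulldown, from short to long. Without both TNIP2 libraries numbered 3 these were 0.00, 0.26 and 0.18, and -0.06, 0.16 and 0.13. Spearman's rho of the log2 fold change with length was 0.14 and 0.07 over the 222 members. Expressed per length, the highest in TNIP2 Pulldown of the 6 most abundant members was ZNF207, at 204.9 ± 20.01 FPKM in TNIP2 Pulldown, 95.93 ± 26.88 in TNIP2 Input and 84.07 ± 4.661 in Control Pulldown (SD, n = 3 each).

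Members nearest to no difference included ZNF576 and ZNF48, whose log2 fold change against TNIP2 Input rounded to 0.00, and ZNF717 (-0.01), all with SE 0.21. Under centring on ribosomal protein genes ZNF717 was called lower in both comparisons (-0.49 and -0.64), and without TNIP2 Pulldown 2 it was called lower against Control Pulldown (-0.51, adjusted p = 0.045). Against Control Pulldown, ZNF37A, ZNF76 and ZNF649 had values of -0.01, -0.01 and -0.02. The lowest means that met the rule were those of ZNF217 (203.33), ZNF579 (204.33) and ZNF226 (205.67), and the highest that did not were those of ZNF616 (198.33), ZNF691 (198) and ZNF619 (197.67). ZNF226 had 676, 532 and 556 normalized counts in TNIP2 Pulldown, against 211, 207 and 301 in TNIP2 Input, and rose by 1.31 and 1.54 (SE 0.18). ZNF579 had 128, 102 and 196 in TNIP2 Pulldown, against 239, 177 and 303 in TNIP2 Input, and was called against TNIP2 Input only (-0.77, adjusted p = 0.015; -0.48, adjusted p = 0.11 against Control Pulldown). That call ended without TNIP2 Input 3 (-0.58) or TNIP2 Pulldown 2 (-0.56), and without TNIP2 Pulldown 3 the gene passed against Control Pulldown (-0.74).

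The remaining numbered zinc finger genes, 305 with a mean under 200, had 230 that passed the filter on low values. Of those, 65 were higher and 46 lower in each comparison, with medians of -0.03 and 0.02. That is 48.3% called in each comparison, beside 58.1% and 59.4% of all genes. Without both TNIP2 libraries numbered 3 they gave 72 higher and 54 lower, and 68 higher and 61 lower. Among 62 tested genes of the related ZSCAN, ZKSCAN and ZBTB families (of 68), 21 were higher and 17 lower against TNIP2 Input (median 0.13), and 20 and 19 against Control Pulldown (median 0.17), which is 61.3% and 62.9% called. The difference between the members and these families was not tested.

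The partners through which KRAB proteins silence DNA were listed as 28 genes, all tested. Of these 13 were higher and 5 lower against TNIP2 Input (median 0.41), and 13 and 7 against Control Pulldown (median 0.25). The shares called were 64.3% and 71.4%, beside 58.1% and 59.4% of all genes, and without both TNIP2 libraries numbered 3 the counts were 14 and 7, and 13 and 8. Under quantile normalization 10 were higher and 10 lower in both comparisons, and centring on ribosomal protein genes gave 7 and 10, and 9 and 7, so the balance of the list depended on the scaling. The maintenance DNA methyltransferase DNMT1 had 14561, 16977 and 21137 normalized counts in TNIP2 Pulldown, against 1637, 1832 and 1888 in TNIP2 Input and 1830, 1678 and 1452 in Control Pulldown. This rise of 3.28 (SE 0.16, adjusted p = 5e-09) and 3.40 (SE 0.16, adjusted p = 3.4e-09) was of the size of the largest rises among the members. DAXX, a histone chaperone, rose by 2.81 and 3.09 (SE 0.21), ATF7IP, a partner of SETDB1, by 2.33 and 2.22 (SE 0.14), and EHMT1 by 2.07 and 2.21 (SE 0.20). The 5 that fell in both comparisons, named after their values were seen, were CBX1 (-1.25 and -1.43) and CBX5 (-1.18 and -1.36), which encode heterochromatin protein 1 forms, UHRF1 (-0.75 and -0.61), which guides DNMT1 to replicated DNA, SUMO2 (-0.70 and -0.52) and the DNA methyltransferase DNMT3B (-0.44 and -0.50). CBX3 (-0.40) and FAM208A (-0.45) were called lower against Control Pulldown only. TRIM28, the protein that KRAB domains bind, was not called (-0.29, adjusted p = 0.26, and -0.26, adjusted p = 0.3), and SETDB1 rose by 0.62 and 0.46 (SE 0.14).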

How the data were processed

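RNA of 12 libraries was sequenced after removal of ribosomal RNA, taken from 90 µl of purified material or 100 µl of extract, per the labels' protocols. The authors deposited normalized counts, held here as a score because they are whole numbers already divided by library factors, and FPKM values. Per the submitters' processing notes, TopHat2 2.0.14, DESeq2 1.6.3 and hg19 were used. How reads were counted, with which annotation and strand setting, is not given in the sources used here. Columns with the letter C matched the Control labels, and the other construct letter was assigned to TNIP2 by elimination. Nothing in the labels says that replicates were separate transfections, so p-values cover the spread among libraries, which may be technical.

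Low values of the deposited FPKM were whole multiples of a step in each library (187 to 396 checked, 99.7409% to 100% whole within 0.1 reads), which gave reads per library. Genes that reached a normalized count of 10 in 3 or more libraries (14627, all 222 members) were fitted on log2(value + 1), which understates changes of low genes, with limma 3.58.1 (R 4.3.3), 1 mean per group, eBayes (trend) and residual degrees of freedom of 8. Adjusted p-values are two-sided Benjamini-Hochberg values over all 14627 genes, called under 0.05. On simulated data, for TNIP2 Pulldown against TNIP2 Input, limma recovered 98% of 50 genes raised by 2 and 66% of 50 raised by 1 on the log2 scale. For falls of these sizes it recovered 98% and 62%, of 50 genes each. There were 11 false calls among 14627 genes. Few genes were changed there and libraries were drawn independently, while 8503 genes were called in the real data. The 11 false calls therefore do not estimate how many of the real calls are false.

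Deviations of same-numbered TNIP2 Pulldown and TNIP2 Input libraries from their group means correlated at 0.369, 0.458 and 0.497. The TNIP2 libraries numbered 3 stood apart together in the principal components. Deviations from a group mean sum to 0, so this joint shift forces opposite shifts in the other libraries of both groups. The correlations therefore do not show that the other numbers pair these groups. Pulldown RNA came from the rest of the extract that gave Input RNA, but the labels do not say that a number marks a shared extract. The main fit ignores any such pairing, and the paired fit of the 6 TNIP2 libraries is given beside it. TNIP2 Pulldown and Control Pulldown (0.00705, 0.0556 and -0.0228) gave no sign of pairing. The named genes are TNIP2; per comparison the 8 highest and 8 lowest called members without overlap and the 3 nearest 0; the 6 most abundant; the 3 on each side of the mean of 200; the role lists; and up to 4 KRAB partners. The members and lists were chosen with earlier results of these data known. Genes were matched to RefSeq (GRCh38.p14) by symbol (221) or synonym (1). Protein features were not analysed here. Alternatives were an offset of 5, other filters, FPKM, voom on recovered reads, quantile normalization, centring on ribosomal protein genes, fewer libraries, a replicate block and leaving out libraries. Depth covers counting error only.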

Additional observations from a re-analysis of the deposited data

Results flagged for a closer look

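For 10 of the 38 named members that were called, all 3 TNIP2 Pulldown libraries lay on one side of the TNIP2 Input mean and all 3 Control Pulldown libraries on the other side of the Control Input mean. That is 26.3% of the named members called, beside 17.5% of all 137 members called and 17.7% of all 8503 genes called. Whether the fragment and the tag alone differ in this change was not tested for any of them, and the changes with the tag alone were small. With the fragment ZNF77 had a log2 fold change of 2.87 (tag alone -0.07), ZNF14 had 2.32 (-0.19), ZNF226 had 1.31 (-0.03), ZNF207 had 1.13 (-0.09) and ZNF146 had 0.41 (-0.07). In the other direction ZNF512 had -1.71 with the fragment (tag alone 0.15), ZNF428 had -1.56 (0.20), ZNF337 had -1.45 (0.16), ZNF593 had -0.86 (0.36) and ZNF644 had -0.43 (0.12). The change of ZNF593 with the tag alone was the largest of the 10, at 0.37, 0.44 and 0.28 in its 3 Control Pulldown libraries over the Control Input mean.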

How the results depend on the processing

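Under FPKM, an offset of 5, voom on recovered reads, other filters and quantile normalization, members higher stayed within 70 to 83 and members lower within 53 to 59 over both comparisons. Centring on ribosomal protein genes moved members higher to 38 against TNIP2 Input and 45 against Control Pulldown, and the medians to -0.35 and -0.17, with 31.1% and 37.5% of called members higher instead of 57.7% and 59%. A fit of the 6 libraries compared gave 59 higher and 44 lower against TNIP2 Input. For this fit and those that left out 1 library, shares over all genes are not given here. Their counts are therefore not read as a result about the family. Leaving out 1 library gave 65 to 87 higher, 47 to 62 lower and a median of 0.04 to 0.26 against TNIP2 Input, and 72 to 93, 48 to 64 and 0.06 to 0.28 against Control Pulldown. The TNIP2 Input median was 0.26 without TNIP2 Input 3, 0.22 without TNIP2 Pulldown 2, 0.05 without TNIP2 Input 1 and 0.04 without TNIP2 Pulldown 3. The Control Pulldown median was 0.28 without TNIP2 Pulldown 2 and 0.06 without TNIP2 Pulldown 3.

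Shares over all genes are not given here for the fits with a replicate block, so their counts are not read as a result about the family. With the replicate block, 81 members were higher and 60 lower against TNIP2 Input and 85 and 59 against Control Pulldown. It made the ZNF143 call against Control Pulldown (-0.57, adjusted p = 0.018) and changed no other call of a named gene. In a fit of the 6 TNIP2 libraries, chosen after seeing the data, the block gave 82 and 60; it ended the calls of ZNF146, ZNF638 and ZNF644, made those of ZNF395 and ZNF711, and changed no other named call against TNIP2 Input. A fit of only the 6 libraries compared, without a block, ended the calls of ZNF143, ZNF146, ZNF274, ZNF326, ZNF579, ZNF609, ZNF638 and ZNF644 against TNIP2 Input and of ZNF24 and ZNF146 against Control Pulldown. Under centring 7 of 38 named calls against TNIP2 Input and 6 of 37 against Control Pulldown ended, and under quantile normalization 4 and 2 did.

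Some values of named members that were called in the main fit or in the alternative changed sign. They were those of ZNF146 (-0.19 under quantile normalization and -0.07 under centring against TNIP2 Input, -0.18 under quantile normalization against Control Pulldown), ZNF638 (-0.15 and -0.05, and -0.31), ZNF451 (-0.01 under quantile normalization against Control Pulldown) and ZNF768 (-0.34 against Control Pulldown without both TNIP2 libraries numbered 3). Values called in neither fit turned too. Under centring against TNIP2 Input these included ZNF148 (0.42 to -0.06), ZNF592 (0.35 to -0.13), ZNF687 (0.45 to -0.03), ZNF335 (0.15 to -0.33) and ZNF384 (0.30 to -0.18). Against Control Pulldown they included ZNF148 (0.13 to -0.22) and ZNF638 (0.26 to -0.09). The cause was not tested. The planned patterns for the KRAB box and for fingers were not run, because no protein table was used here. Precision is lowest in Control Pulldown, where 1 read was worth 1.6 to 2.86 normalized counts.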
